A study of Mustela putorius furo and Mus musculus with 4 samples.

Results

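The genes described here are 113 abundant mouse rows that a comparison by gene symbol left out, because their symbol, read without regard to case, was absent from the ferret expression files. They were chosen as rows of the mouse files with a mean of at least 200 FPKM over the 2 mouse libraries and no ferret row of that symbol, outside mitochondrial (mt-) symbols, ribosomal protein (Rpl and Rps) symbols and a short list of long non-coding RNAs. FPKM divides the sequenced fragments of a gene by its exon length and by the mapped reads of the library, and is thus a level per length of transcript. The mouse files held 55257 rows and the ferret files 16853 rows, and 13373 symbols occurred in both. Of the 364 mouse rows at or above 200 FPKM, 176 (48.4%) had no ferret symbol. Among these 176 were 17 mt- rows, 45 ribosomal protein rows and 1 listed non-coding RNA, which left the 113 members. The mouse level and the presence of the symbol chose the members, so both are given as descriptions, without a test.

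The study compared astrocytes cultured from the cerebral cortex of ferret pups at P1 (postnatal day 1) with astrocytes from ICR mouse pups at P1 to P3, with 2 RNA-seq libraries per species. Glia were grown with serum for 14 days, the flasks were shaken to remove loosely attached cells, and the replated astrocytes were moved to serum-free medium before RNA was taken. No genetic change or drug separated the groups, which differed in species and in the range of ages. One mouse flask held the cells of several pooled pups, whereas the cells of a ferret pup filled several flasks. The sources used here do not say that the libraries of a species came from separate cultures, so their spread may be technical. In the mouse libraries all 8 astrocyte markers were above 1 FPKM, from Sox9 at a mean of 33.5 to Gfap at a mean of 1487. Markers of microglia (6 of 6) and meningeal fibroblasts (5 of 5) were above 1 FPKM as well, with summed levels of 220 and 209.6 FPKM for microglia and 428 and 412 FPKM for fibroblasts. Of the oligodendrocyte markers 2 of 4 were above 1 FPKM, of the neuronal markers 1 of the 3 with a row, and of the endothelial markers 1 of 3, with Cldn5 listed at 0.

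A join by symbol keeps a gene only if both genome annotations give it the same name. Genes can lack a partner for several known reasons: processed pseudogenes are copies of messenger RNA pasted into the genome of 1 lineage, gene families expand differently between lineages, naming committees rename genes at different times, and draft genomes hold unnamed or missing gene models. Some strongly expressed housekeeping genes, such as those for ferritin, tubulin and elongation factors, have left many processed pseudogenes in mammalian genomes.

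Sequences of 2 kinds of member are shown, because copies and gene families recur in the results below, though many members are of neither kind. The first kind is a near copy of another mouse gene. Below, bases 1 to 60 of the pseudogene Gm28438 and of the mitochondrial gene mt-Nd3 are set together, then a stretch of the pseudogene Gm15459 with the matching stretch of the chaperone gene Hspa8. Sequences are from the GENCODE transcripts on GRCm38, 5′ to 3′, and the capital marks the base that differs in the stretch. Written with the parent gene's base first and the position counted from 1 at the 5′ end of the copy, these differences were T3C and G114A.
Gm28438: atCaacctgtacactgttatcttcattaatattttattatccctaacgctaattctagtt
mt-Nd3: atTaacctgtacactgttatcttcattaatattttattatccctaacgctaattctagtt
Gm15459: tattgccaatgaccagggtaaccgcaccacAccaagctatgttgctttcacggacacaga
Hspa8: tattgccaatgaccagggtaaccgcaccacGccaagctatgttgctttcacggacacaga

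A copy could also be identical. The whole 75 bases of Gm3699 matched bases 232 to 306 of the Rpl41 transcript, the messenger RNA of a very short ribosomal protein, and no base is in capitals because none differed.
Gm3699: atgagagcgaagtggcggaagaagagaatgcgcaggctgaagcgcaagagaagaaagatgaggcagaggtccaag
Rpl41: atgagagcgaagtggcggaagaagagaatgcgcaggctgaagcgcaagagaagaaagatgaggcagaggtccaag

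The second kind is a short coding gene of a multigene family. The metallothioneins, which bind zinc and copper through cysteines, are shown by their whole coding sequences without the stop codon, with the cysteine codons in capitals. Each held 20 cysteine codons, of 61 codons in Mt1 and Mt2 and of 68 in Mt3.
Mt1: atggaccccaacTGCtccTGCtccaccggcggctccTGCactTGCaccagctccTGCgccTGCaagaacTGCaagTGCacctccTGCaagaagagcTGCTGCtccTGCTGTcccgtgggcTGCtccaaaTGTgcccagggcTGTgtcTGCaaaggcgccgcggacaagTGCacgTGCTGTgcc
Mt2: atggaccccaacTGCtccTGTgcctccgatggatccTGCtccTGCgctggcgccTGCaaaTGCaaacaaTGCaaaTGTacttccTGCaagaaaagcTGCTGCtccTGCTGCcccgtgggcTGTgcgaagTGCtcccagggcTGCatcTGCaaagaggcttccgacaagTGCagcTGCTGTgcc
Mt3: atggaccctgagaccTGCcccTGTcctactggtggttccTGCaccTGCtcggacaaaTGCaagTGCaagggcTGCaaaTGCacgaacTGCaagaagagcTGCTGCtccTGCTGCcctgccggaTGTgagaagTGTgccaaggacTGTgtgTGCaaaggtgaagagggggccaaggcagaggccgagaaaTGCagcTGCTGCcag

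The members spanned 201.5 to 4982 FPKM with a median of 341 FPKM. Of the 113, 19 had a mean of at least 1000 FPKM, 18 lay between 500 and 1000, and 76 were under 500. Members filled 3 of the 10 highest mouse rows, 8 of the first 20 and 32 of the first 100. By the mouse annotation 94 were protein-coding, 14 were pseudogenes and 3 were non-coding RNAs, and 2 rows (Atp5md and Gm49909) had no entry in the annotation release used here. All 159 rows at this level that kept a ferret symbol outside the exclusions were protein-coding, so each pseudogene and non-coding row at this level was on the dropped side. Of all coding mouse rows with a mean of at least 1 FPKM outside the exclusions, 21.9% (2670 of 12185) had no ferret symbol. At 200 FPKM and over that share was 37.2% (94 of 253), which is the share to set beside those of the coding classes at this level below. For families counted from 1 FPKM, the share to set beside theirs is the 21.9%.

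**Figure D1:**
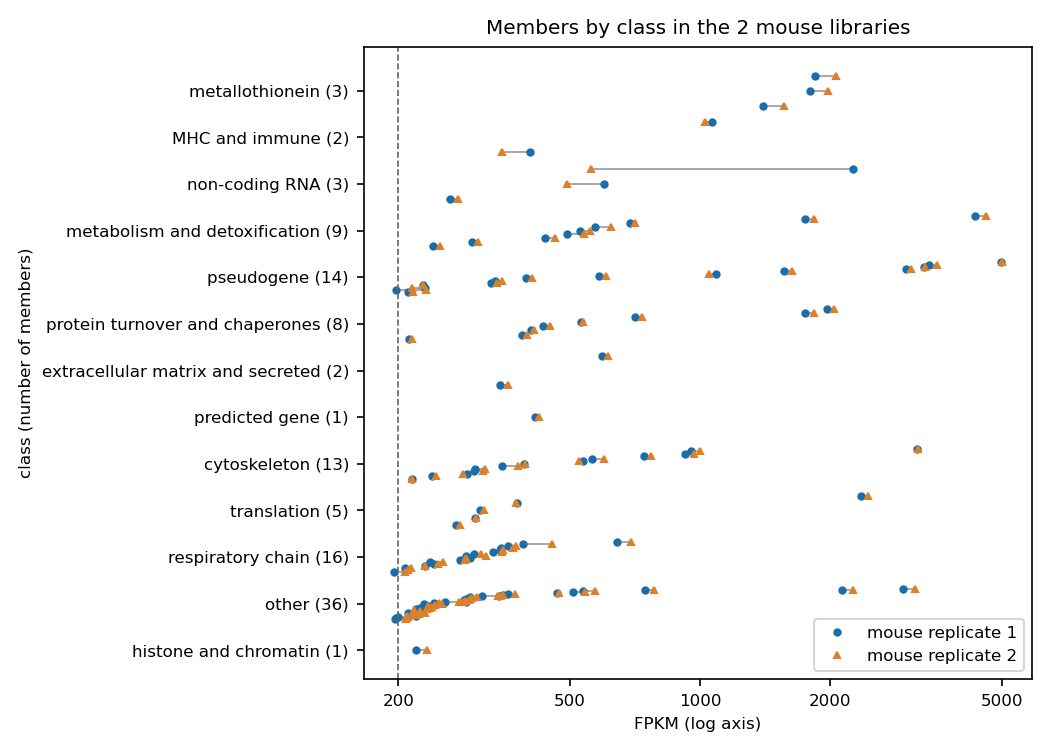
FPKM of the 113 members in mouse replicate 1 (circles) and mouse replicate 2 (triangles), by class with the number of members, on a log axis with the limit of 200 FPKM dashed. The symbols of a member nearly coincide except for 1 of the non-coding RNAs.

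The 2 mouse libraries gave nearly the same level for most members. Library 2 was higher for 96 members and library 1 for 17, with a median absolute log2 difference of 0.05, against 0.06 for the 159 kept rows. The summed FPKM over all mouse rows was 525962 and 535899, a ratio of 1.02. Apart from 1 non-coding member that stood higher in library 1, the absolute log2 difference reached at most 0.28 among members and 0.23 among kept rows. The ribosomal RNA row CT010467.1 was higher in library 1, at 598 against 492 FPKM, and the short pseudogene Gm3699 was higher in library 2, at 232 against 197 FPKM. Gm3699 is 75 bases long, shorter than a read in the paper's methods. Its FPKM is thus scaled by a length below that of a read, and its level and library difference are uncertain. The FPKM files do not give the depth, and read counts were not used here, so no counting interval is set beside these values.

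Together the members carried 15.0% of the summed FPKM in each library (79046 and 80175 FPKM). Rows with a symbol in both species carried 57.1% and 57.5%, and all absent rows together 42.9% and 42.5%. The mt- rows carried 8.70% and 8.57%, the ribosomal protein rows without a ferret symbol 4.52% and 4.51%, and the listed non-coding RNAs 0.164% and 0.151%. Other absent rows at or above 50 FPKM (378 rows) carried 6.73% and 6.72%, while 40965 absent rows under that level carried 7.72% and 7.59%. The members were thus the largest of the absent categories by summed FPKM in both libraries. A sum of FPKM over rows is not a share of molecules where rows share reads, as the copies below may.

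**Figure D2:**
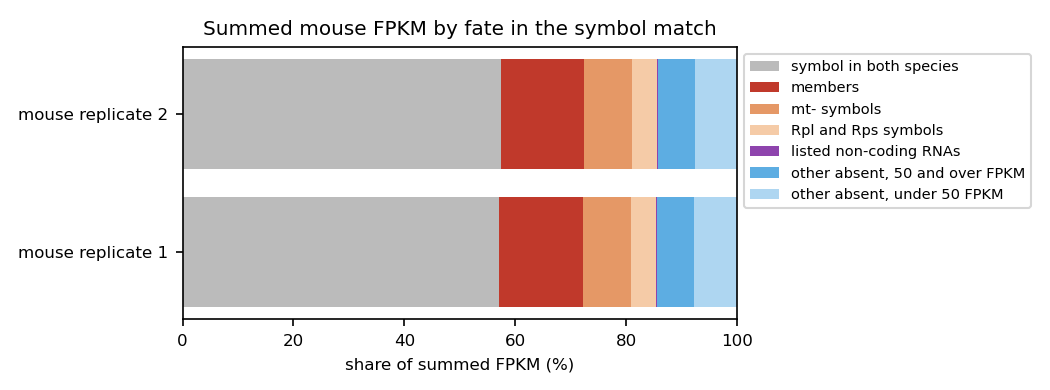
Share of the summed FPKM (percent) of each mouse library by category of row, as stacked bars from 0 to 100%. The red segment, the 113 members, is 15.0% in both libraries, next to the grey segment of 57.1% and 57.5% for symbols in both species.

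The pseudogenes were led by copies of mitochondrial genes. Mitochondrial DNA encodes core subunits of the respiratory chain, and nuclear genomes carry inserted copies of it. Of the members, 8 matched a mitochondrial gene, and 7 of these lay side by side on the minus strand of chr1:24611535-24616197 (GRCm38). All 8 together were listed at 18113 FPKM in library 1 and 18411 FPKM in library 2, which is 22.9% and 23.0% of the members' sum. Gm29216, the highest of all members, stood at 4979 and 4986 FPKM and matched mt-Co1, the largest cytochrome c oxidase subunit, with 1 difference (A13T) over 483 bases. The parent mt-Co1, a longer gene of which the copy matched only a part, was listed at 7169 and 7256 FPKM over its whole length. The copy thus stood at 0.694 and 0.687 of it. Both libraries therefore gave nearly the same ratio of copy to parent.

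Of the 5 mitochondrial copies without a difference, 4 were listed within 1% of their parent in both libraries. Gm28437 matched mt-Co3 over all 783 bases without a difference and was listed at 3379 and 3528 FPKM, against 3374 and 3522 FPKM for mt-Co3. Gm28661 had the sequence of mt-Co2 over 681 bases, at 3298 and 3310.2 FPKM against 3280.4 and 3293 FPKM. Gm10925, with the sequence of mt-Atp6 over 678 bases, stood at 2988 and 3083 FPKM against 2973.5 and 3069 FPKM. These 3 parents encode subunits of cytochrome c oxidase and of ATP synthase. Gm10222 and mt-Nd4l were listed at 1566 and 1633 FPKM and at 1565 and 1625 FPKM, again with a ratio of 1.00 in both libraries. Gm28438, which differed from mt-Nd3 at the base shown above, was listed at 585 and 607 FPKM against 578 and 599 FPKM for mt-Nd3. Gm28439 matched 876 bases of the longer gene mt-Nd4 without a difference and stood at 1088 and 1050.3 FPKM, or 0.588 and 0.558 of its parent. The more diverged Gm13340, on the minus strand of chr2:22588103-22589647, had 37 differences from mt-Co1 over 1545 bases and stood at 231 and 215 FPKM, or 0.0322 and 0.0296 of the parent. The paper's methods give default settings for the aligner STAR and do not state how reads that fit both places were divided. What came from the copy and what from the parent thus cannot be told apart.

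Another 7 members copied nuclear genes. Gm1821 matched the ubiquitin gene Ubb at 98.5% identity and was listed at 395 and 408 FPKM, close to Ubb itself at 405 and 411 FPKM. Gm15459 stood at 328 and 338 FPKM against 705 and 732 FPKM for Hspa8, a constitutive chaperone, with 5 differences over 1941 bases. Gm12715 stood at 335 and 347 FPKM against 854 and 890 FPKM for Actg1, the gene of cytoplasmic gamma actin, with 4 differences over 1128 bases. In these 3 pairs the copy was listed below its parent in both libraries, and Gm1821 was the nearest to it. Gm10076, annotated as non-coding, matched Rpl41 with 2 differences over 383 bases, at 263 and 276 FPKM against 964 and 993 FPKM. Gm12481 matched 297 bases of Serf2 without a difference, at 211 and 217 FPKM against 343 and 342 FPKM. Tpt1-ps3 matched 519 bases of Tpt1, the gene of the translationally controlled tumour protein, without a difference, at 228.5 and 228 FPKM against 1479 and 1487 FPKM. Of the 7, the parents Actg1 and Tpt1 had a ferret symbol, and the other 5 copied Ubb, Hspa8, Rpl41 or Serf2, which had none, so for those both copy and parent were dropped. In all, the pseudogenes carried 25.1% and 25.2% of the members' summed FPKM and the non-coding rows 3.95% and 1.65%, the latter moving with that non-coding member.

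**Figure D3:**
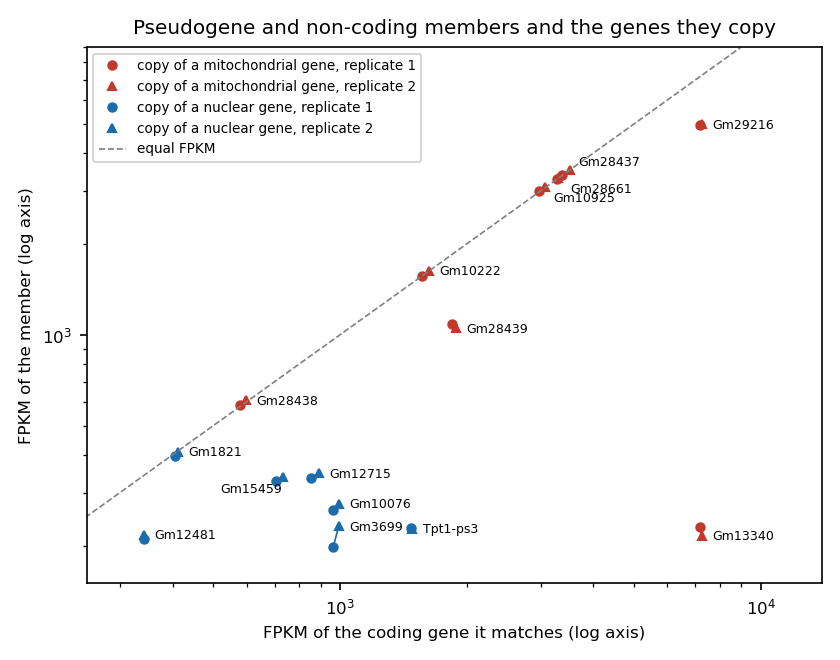
FPKM of 15 pseudogene or non-coding members against the FPKM of the mouse gene each matched, both on log axes, with mouse replicate 1 as circles and replicate 2 as triangles. Copies of mitochondrial genes (red) lie on the dashed line of equal FPKM for 5 of 8, and copies of nuclear genes (blue) lie on it or below it.

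Genes of iron storage and metal binding were among the abundant coding members. The highest coding member was Fth1, the ferritin heavy chain that oxidises and stores iron, at 4334 and 4583 FPKM, and Ftl1, the ferritin light chain, stood at 1747 and 1833 FPKM. The metallothionein Mt1 was listed at 1844 and 2068 FPKM, Mt3, the form enriched in brain, at 1796 and 1975 FPKM, and Mt2 at 1398 and 1566 FPKM. Both ferritins and all 3 metallothioneins with at least 1 FPKM were absent from the ferret symbols, so neither family entered the symbol match. Of the other detoxification genes, Prdx1, a peroxiredoxin that removes hydrogen peroxide, was listed at 686 and 705 FPKM, and 5 other peroxiredoxins kept a ferret symbol. Gstm1, a glutathione transferase, stood at 571 and 621 FPKM, and Gpx4, which reduces lipid peroxides, at 526 and 557 FPKM.

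Of the cytoskeletal rows at this level, 13 of 21 (61.9%) were dropped. Tmsb4x, the thymosin that holds actin monomers, was listed at 3175 and 3200.1 FPKM, and all 5 beta thymosins with at least 1 FPKM lacked a ferret symbol. Tuba1a, the alpha tubulin of young neural cells, stood at 952 and 1001 FPKM, and Myl6, a myosin light chain, at 924 and 969 FPKM. Tuba1b stood at 563 and 598 FPKM and Tuba1c at 300.4 and 318 FPKM. These 3 tubulins share 97.7% to 98.6% of their coding bases, and they carried 97.3% and 97.4% of the FPKM of the alpha tubulins, of which only Tuba4a kept a symbol at 1 FPKM or more. Beta tubulins lost 2 of 6 rows, with 47.4% and 47.1% of their FPKM. Cnn3, an actin-binding calponin, was listed at 739 and 769.7 FPKM, and tropomyosins lost 3 of 4 rows with 91.1% of their FPKM in each library.

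Among coding classes with at least 5 rows at this level, the respiratory chain had the highest share dropped, 16 of 23 rows (69.6%). Atp5b, the catalytic beta subunit of ATP synthase, was listed at 641 and 692 FPKM, Cox8a, a small cytochrome c oxidase subunit, at 389 and 454 FPKM, and Atp5g3, a subunit of the rotating ring, at 358 and 374 FPKM. Of 17 ATP synthase genes with at least 1 FPKM, 15 lacked a ferret symbol, with 90% and 89.9% of the FPKM of these genes, and 9 of them were members. Of the 15, 6 had a ferret row under another name, so their loss in the match was one of naming. Cytochrome c oxidase lost 7 of 13 nuclear genes with 64.3% and 64.8% of their FPKM, and cytochrome bc1 lost 5 of 8 with 61.7% and 61.8%. The NADH dehydrogenase genes, none of which was a member, lost 14 of 36 with 39.9% and 40.4%. Among all 80 respiratory chain rows at or above 50 FPKM, 44 (55.0%) were dropped. Coding rows of any class lost 20.6% from 50 to 100 FPKM, 26.5% from 100 to 200 and 37.2% at 200 and over.

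Protein synthesis and turnover were also represented. Of the translation genes 5 of 14 (35.7%) were dropped, near the 37.2% of all coding rows at this level: Eef1a1, the factor that brings tRNA to the ribosome, stood at 2353 and 2443 FPKM, Fau, a ubiquitin-like fusion with a ribosomal protein, at 376 and 375 FPKM, and Eif5a, a factor that aids elongation, at 309 and 316 FPKM. Of turnover and chaperone genes 8 of 14 (57.1%) were dropped, led by Ppia, a prolyl isomerase, at 1966 and 2041 FPKM. Ctsd, a lysosomal aspartic protease, stood at 1748 and 1829.8 FPKM and Hspa8 at the level given above. With Ctsl, Ctsd carried 59.2% and 59.9% of the FPKM of 12 cathepsins, although 10 of them kept a symbol. The only histone row at this level, H3f3a, the replication-independent histone H3.3, was a member at 219.9 and 233 FPKM.

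Extracellular matrix and secreted genes had the lowest share dropped among these classes, 2 of 20 rows (10%). These were Igfbp3, which binds insulin-like growth factors, at 591 and 611 FPKM, and Selenof, a selenoprotein of the endoplasmic reticulum, at 344 and 359.8 FPKM. At or above 50 FPKM the class lost 7 of 43 rows (16.3%). Coding rows of any class lost 20.6% from 50 to 100 FPKM, 26.5% from 100 to 200 and 37.2% at 200 and over. Metabolic and detoxification genes, counted together, lost 9 of 24 rows (37.5%) at 200 FPKM and over, again near the 37.2% of all coding rows. Of the immune genes 2 of 6 (33.3%) were dropped: Lyz2, the lysozyme of myeloid cells, was listed at 1065 and 1024.5 FPKM, and Ifitm3, an antiviral membrane protein, at 403 and 348 FPKM. Both stood higher in library 1, as did the summed markers of microglia (220 against 209.6 FPKM) and meningeal fibroblasts (428 against 412 FPKM). The oligodendrocyte sum was higher in library 1 as well, and the astrocyte, neuronal and endothelial sums were higher in library 2. The part of any of these cells in the levels was not tested.

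Outside these classes stood 36 members, of which 23 were given a textbook role. Pea15a, an astrocyte-enriched phosphoprotein that binds ERK, was listed at 2948 and 3149.8 FPKM, the highest of 9 signalling and trafficking genes. Dbi, which carries acyl-CoA and gives rise to a peptide ligand of GABA-A receptors, stood at 2129.9 and 2259 FPKM, the highest of 5 genes of lipid, energy and mitochondrial roles. S100a11, a calcium sensor at membranes, stood at 743 and 783 FPKM above Anxa2 and S100a10. The 6 nuclear and RNA-binding genes lay between 205 and 349 FPKM. One predicted gene, Gm49909, was listed at 414 and 423 FPKM.

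The coding members differed from the kept rows in features that the choice did not use, given here as counts without a test. Their median coding length was 567 bases against 915 bases for the 159 kept rows, at a similar median level (311 against 317 FPKM). Coding sequences of at most 400 bases made up 33 of 94 members (35.1%) and 17 of 159 kept rows (10.7%). At least 1 pseudogene copy, a pseudogene transcript matching at 80% identity or more over at least 50% of the coding sequence, was found for 64 members (68.1%) and 58 kept rows (36.5%). A pseudogene of a related gene can count as well, and a pseudogene can count for several genes of a family. The closest to Gstm1 was Gstm2-ps1, and the near-identical Tuba1a, Tuba1b and Tuba1c had 18, 19 and 17 copies. Copies were matched to a single coding sequence per gene, so near-identical copies of another transcript can be missed. Gm12481 matched that of Serf2 at 92.7% identity, although part of a Serf2 transcript matched it without a difference. At least 5 copies were found for 27 members (28.7%) and 20 kept rows (12.6%), and a copy at 98% identity or more for 28 members (29.8%) and 20 kept rows (12.6%). The highest numbers among members were 63 for H3f3a, 59 for Ppia and 23 for Ldha, a lactate dehydrogenase, and the highest among kept rows was 297. For Tmsb4x and the 3 metallothioneins none was found, so copies were not found for all members.

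The background share of 21.9% was made up of unequal shares by level. The share of coding rows dropped was 25.1% from 1 to 10 FPKM, 17.7% from 10 to 50, 20.6% from 50 to 100, 26.5% from 100 to 200, and 37.2% (94 of 253) at 200 FPKM and over. Within the top level, 22.9% of rows without a pseudogene copy, 49.3% of those with 1 to 4 copies and 57.4% of those with at least 5 were dropped. From 50 to 200 FPKM, where none of the members lies, the shares were 17.3% (161 of 931), 28.6% (92 of 322) and 63.8% (44 of 69). Copy number and coding length went together, so the shares were also split by both. Among top-level rows over 400 bases, 18.97% without a copy and 44.8% with a copy were dropped, and among those of at most 400 bases 53.3% (8 of 15) and 71.4% (25 of 35). From 50 to 200 FPKM the same shares were 14.6% and 27.7% for longer rows and 45.1% and 55.6% for shorter rows. In each of these 4 settings the share was higher with a copy than without one, and for short rows it was higher than for long rows with the same copy state. Whether either feature acts on the naming of ferret genes was not tested.

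**Figure D4:**
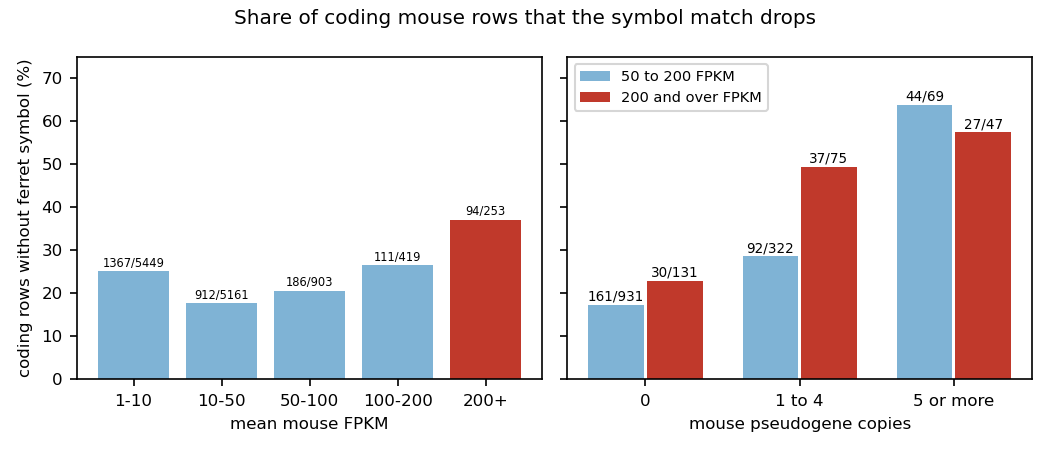
Percentage of protein-coding mouse rows without a ferret symbol, by mean mouse FPKM (left) and by number of mouse pseudogene copies (right, blue for 50 to 200 FPKM and red for 200 FPKM and over), with the counts above the bars. The bars rise from 17.3% to 63.8% and from 22.9% to 57.4% with the number of copies.

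An absent symbol did not always mean an absent gene model. In the ferret RefSeq annotation (assembly ASM1176430v1.1, another assembly than the one the authors used), 59 of the 94 coding members (62.8%) were present under the same symbol, and 73 (77.7%) when renamed symbols were included. Of the 159 kept rows 143 (89.9%) were present under the same symbol. In the ferret expression files, 8 members were found under the current name of the same gene and 3 under the name of a related gene, from a table of synonyms written by hand. For the other 83 coding members no ferret row was found. Of the 9 ATP synthase members, 4 had a ferret row under another name and 5 had none.

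The 8 renamed members allow their ferret levels to be set beside the mouse levels, on the log2(FPKM + 1) scale as ferret minus mouse. The mouse side of this difference chose them, so no test was made. Each species was measured on its own annotation, with gene models whose lengths were not compared here. In bulk RNA fewer cells of a type and less RNA per cell cannot be told apart. In none of the 8 did the libraries of the species overlap. Pea15a, PEA15 in ferret, was listed at 539 and 573 FPKM in the ferret libraries, well below its mouse values, a difference of −2.45. Rab7 (RAB7A), a GTPase of late endosomes, stood at 59.3 and 62.6 FPKM in ferret against 197 and 208 FPKM in mouse (−1.72). Atp5j (ATP5PF), a stalk subunit of ATP synthase, stood at 101.5 and 103.5 FPKM against 230.4 FPKM in both mouse libraries (−1.16).

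Smaller differences were seen for the remaining 5. Gpi1 (GPI), a glycolytic isomerase, was listed at 129 and 141.5 FPKM in ferret against 232 and 235 FPKM in mouse (−0.78). Atp5b (ATP5F1B) stood at 471 and 497 FPKM in ferret (−0.46) and Atp5g3 (ATP5MC3) at 279.9 and 298 FPKM (−0.34), and the sign of Atp5g3 turned when the libraries were rescaled or quantile normalized (0.049 and 0.027). Tubb5 (TUBB), a widely expressed beta tubulin, was higher in ferret, at 442 and 488 FPKM against 239.9 and 244 FPKM (0.94), and so was Atp5k (ATP5ME), at 289 and 332 FPKM against 195.5 and 208 FPKM (0.62). The 4 ATP synthase subunits therefore did not share a direction.

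As deposited, 3 of the 8 were lower in ferret by more than 1 on the log2 scale and 0 were higher by more than 1. Among the 159 name-matched symbols at the same mouse level, 59.1% (94) were lower and 1.26% (2) higher by that measure. The median difference was −0.62 for the 8 and −1.41 for the name-matched symbols, a set that was chosen by a high mouse level in the same way. Rescaling the libraries over the shared symbols moved the medians to −0.23 and −1.02, with 2 of the 8 and 83 of the 159 lower by more than 1. After quantile normalization 2 of the 8 and 80 of the 159 were lower by more than 1. After rescaling, Tubb5 stood at 1.33 and Atp5k at 1.01, and after quantile normalization at 1.28 and 0.989. How many of the 159 were higher by more than 1 under these scalings was not counted.

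**Figure D5:**
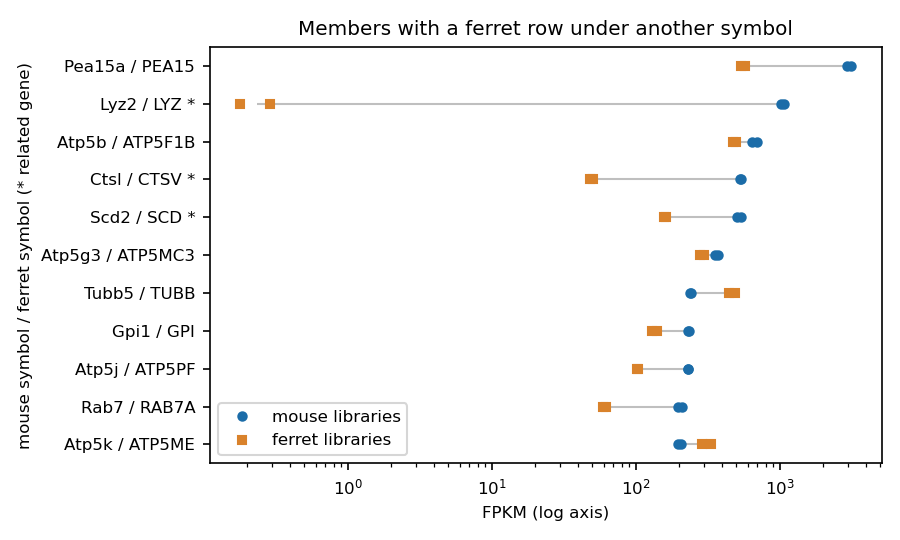
FPKM of the 11 members with a ferret row under another name, in 2 ferret and 2 mouse libraries on a log axis. The libraries of the species do not overlap for any of the 11, and the ferret values are the higher ones for Tubb5 and Atp5k only.

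For the 3 members with a related ferret gene the values are not those of the same gene. Lyz2 was set beside LYZ, which was listed at 0.290 and 0.180 FPKM in ferret, a difference of −9.73. With ferret values this low the size of the difference depends on the pseudocount, and it was −11.63 with a pseudocount of 0.1. Ctsl, a lysosomal cysteine protease at 529 and 536 FPKM in mouse, was set beside CTSV at 48.4 and 50.5 FPKM (−3.40). Scd2, a fatty acid desaturase at 508 and 542 FPKM, was set beside SCD at 162 and 157 FPKM (−1.71). All 3 related genes were lower in ferret under each scaling tried.

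The limit of 200 FPKM cut through a dense range of levels. Just inside it stood Atp5k, Rab7 and Spcs1, a signal peptidase subunit, with means from 201.5 to 203 FPKM. Just outside stood Ndufa3, a subunit of NADH dehydrogenase, at 191.5 and 205 FPKM, C1qa, a complement gene of microglia, at 193 and 193 FPKM, and the pseudogene Gm3788 at 198 and 182 FPKM. Of the members, 5 were under 200 FPKM in 1 of the libraries. Aldoa, a glycolytic aldolase, was the member whose symbol had a further row, with 492 and 538 FPKM in the row that passed and 0.390 and 0.612 FPKM in the other.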

How the data were processed

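RNA-seq libraries of cultured ferret and mouse astrocytes were analysed (2 per species). According to the methods and the submitters' processing notes (bcl2fastq 2.17, STAR 2.7.0f, Cufflinks 2.2.1), the authors aligned poly(A)-selected stranded reads to the Ensembl genome of each species (MusPutFur1.0, GRCm38) and deposited FPKM per gene, normalized to mapped fragments and exon length. The deposited files hold no counts and do not give the depth. The read counts that the study lists in its supplement were not used here, so no count test was made and no counting interval is given. The methods give default settings for STAR and name no settings for Cufflinks. How reads that map to several places were shared is not stated there.

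Symbols were joined in upper case, without synonyms. Mouse rows were annotated with GENCODE M21 on GRCm38, another release than the authors'. Pseudogene copies were searched with blastn 2.17.0, with coding sequences of genes at or above 50 FPKM as queries, and copies were counted at 80% identity over 50% of the query. The search was tested on simulated full-length copies with substitutions only. Short coding sequences such as those of Tmsb4x and the metallothioneins were not among them, so their lack of copies was not checked. Tables were handled in Python 3.11.15 with pandas 2.3.3. Species differences used log2(FPKM + 1), with 0.1 as another pseudocount. RefSeq supplied ferret gene names only.

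The members, the gene classes and the lists were chosen with earlier results of these data known, and the synonym table, the textbook roles, the gene families and the copy thresholds after their values were seen. Named were the 20 highest members, the 3 highest of each class, the 3 members inside and the 3 rows outside the limit, the 3 members with the largest difference between mouse libraries, members with a repeated symbol and members with a ferret synonym. One member with a large difference between libraries is counted in the totals but not reported here. Others named (copies and parents, Atp5md, Cnn3, Gstm1, Gpx4, Tuba1b, Tuba1c, Anxa2, S100a10, Ldha) were chosen after their values were seen. No test was made, because the rule used both the mouse level and the ferret symbols. Alternatives were other limits, 1 library at a time, other sums, rescaling and quantile normalization.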

Additional observations from a re-analysis of the deposited data

How the results depend on the processing

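The number of members was 252 at a limit of 100 FPKM, 44 at 400 FPKM and 109 to 114 with 1 mouse library left out. The members' share of the summed FPKM was 17.8% over rows outside mt-, Rpl and Rps symbols, 15.1% over rows with a mean of at least 1 FPKM and 15.0% with either library left out. The share of abundant mouse rows dropped was 39.5% at a limit of 100, 53.6% at 400, 33.5% over all rows of at least 1 FPKM and 48.3% to 48.4% with 1 library left out. The median difference of the 8 renamed members was −0.23 after rescaling, −0.29 after quantile normalization and −0.67 to −0.57 with 1 library left out. Atp5g3 changed sign, to 0.049 after rescaling and 0.027 after quantile normalization. In 2 alternatives chosen after seeing the data, the gap in share dropped between rows with at least 5 copies and with none at 200 FPKM and over was 38.1 points for copies at 90% identity and 36.6 points for copies over 80% of the coding sequence, against 34.5 points as described. The cause of these shifts was not tested, except that each limit and sum changes the rows counted.

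No paired analysis was possible because no result comes from a test. There were 2 libraries per species with separate annotations, and read counts were not used here, so counting error was not estimated and species and gene model cannot be told apart. Levels of near-identical copies and parents depend on how shared reads were assigned.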
